A study of Mus musculus with 39 samples.

Results

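The transcriptional response of the neonatal brain endothelium to loss of Eng was described in 10 libraries, 5 from mutant and 5 from wild-type mouse pups, out of 39 libraries in the series. Mutants were C57BL/6 pups of genotype Engf/f; Cdh5-CreERT2, in which a Cre recombinase driven by the endothelial Cdh5 promoter removes Eng once tamoxifen is given. Wild types were Engf/f pups, which carry the floxed gene without Cre. Pups of this cohort were given tamoxifen at 300 µg on each of postnatal days 1 to 3, and brains were taken on day 7. Endothelial cells were released from whole brain, captured on beads carrying an antibody to PECAM, and their messenger RNA was sequenced. All columns of the Eng cohort's table named as mutant or as wild type were used, and all genes entered the analysis. Cohorts with endothelial loss of Smad4 or of Alk1 (gene symbol Acvrl1), each with 5 mutants (Smad4f/f; Cdh5-CreERT2 or Alk1f/f; Cdh5-CreERT2) and 5 floxed wild types, served only for comparison. Smad4 pups had the same age and tamoxifen dosing as the Eng pups, whereas Alk1 pups received 100 µg on day 4 and were taken on day 6. Every mutant carried Cre and no wild type did, so the loss of Eng and the activity of Cre cannot be told apart in this design. Whether a library came from 1 pup or from several is not given in the labels, and p-values measure the spread between these libraries only.

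Endoglin, the product of Eng, is a co-receptor on the endothelial surface that binds the circulating ligands BMP9 and BMP10 and presents them to the receptor ALK1. ALK1, paired with BMPR2, phosphorylates receptor SMADs, which enter the nucleus with SMAD4 and drive genes such as the ID factors, HEY1 and SMAD6. Loss of one copy of ENG in people causes hereditary haemorrhagic telangiectasia, in which arteries and veins connect without a capillary bed, and deletion of Eng in the endothelium of newborn mice serves as its model.

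The values are normalized expression values, and a level is given per library in the order of the deposited columns, wild types 1 to 5 and mutants 1 to 5. Wild type 5 and mutant 5 carry the library code L216 and the other 8 libraries the code L210. Depth, inferred from the spacing of low values, was 13.1 to 30.9 M fragments per library, and 16776 to 17683 genes had a value above 0. By Xist and the Y-linked Ddx3y each group held 3 male and 2 female libraries. A gene was called when its limma p-value, adjusted by the Benjamini-Hochberg method over the 14350 genes tested, was under 0.05. Effects are log2 fold changes of mutant over wild type ± SE (n = 5 per group), fitted on log2 of the value plus 2, which understates the change of genes with low values. Positions are given for mm10.

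Eng itself (chromosome 2, 32646595 to 32682669) was the largest fall in the cohort. The wild types held 60151, 61492, 63793, 61264 and 70402 and the mutants 11508, 9102, 10664, 8613 and 10871, so every mutant lay far below every wild type (-2.65 ± 0.08, adjusted p = 1.14e-09 by limma). Between 13.6% and 18.1% of the wild-type mean remained in single mutants. Of 31 other genes tested within 500 kb of Eng, 5 were called higher and 1 lower, or 19.4% against 21.5% of all genes, with a median effect of -0.03. Ak1, an adenylate kinase gene whose annotated end lies 11.5 kb before the start of Eng, was at 205, 114, 141, 160.4 and 125 in the wild types and 299.9, 355, 221, 282 and 315 in the mutants (0.99 ± 0.17, adjusted p = 0.00153). Its groups did not overlap. Ak1 was also higher in the Smad4 mutants (1.51, adjusted p = 0.000281) and lower in the Alk1 mutants (-0.74, adjusted p = 0.0377). Fpgs, whose end overlaps that of Eng on the annotation, fell by 0.22 on the log2 scale (adjusted p = 0.00412).

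Changes were many and mostly small. Of all genes tested 21.5% were called, 12.4% higher and 9.08% lower, and 82.6% of the calls were under 1.5-fold. Only 0.969% of the genes tested were called with a change of at least 2-fold. The pair of libraries with the code L216 gave a comparison of sign that did not use the others. It is 1 library against 1, and wild type 5 is female whereas mutant 5 is male. Of 3141 genes called among the 8 libraries coded L210, 87.7% changed in the same direction between mutant 5 and wild type 5, against 67.7% of all genes tested. Fitted together with the Smad4 and Alk1 libraries, 30 in all with 1 shared estimate of the spread, 1611 genes were called. Of the 14350 genes tested these were 1032 higher and 579 lower. Of 97 called genes named in the text, 23 lost the call in that fit. They were Abcc4, Ackr1, Acvr2b, Adgra1, Cbln2, Cldn5, Efnb2, Flt1, Flt4, Foxq1, Grem1, Lef1, Lyl1, Mgp, Ptprb, Rec8, Slc6a17, Smad4, Smad5, Smad6, Smurf2, Tgfbr2 and Tie1. Calls of Tgfbr2 and Smurf2 were also lost in 7 and 4 of the 10 fits that left out 1 library. Among the gene groups below, that fit called higher 7 of 24 tip cell genes and 9 of 26 of hypoxia and glycolysis. Also called higher were 6 of 78 ribosomal genes, 12 of 78 of the respiratory chain, 3 of 25 matrix genes and 1 of 15 venous genes. It called lower 12 of 22 capillary transport genes, 7 of 24 Wnt genes, 7 of 21 arterial genes and 2 of 12 receptors. Also called lower were 1 of 7 angiopoietin and TIE genes, 1 of 17 Notch genes, 3 of 9 ABC transporters and 3 of 18 junction genes. Another 1 of 24 endothelial transcription factors and 1 of 12 endothelial markers were called lower, but none of the 10 VEGF genes. The ribosomal and endothelial transcription factor counts were near the shares of all genes in that fit. The plot of list shares sets each of the gene groups described below beside the share of all genes.

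**Figure D1:**
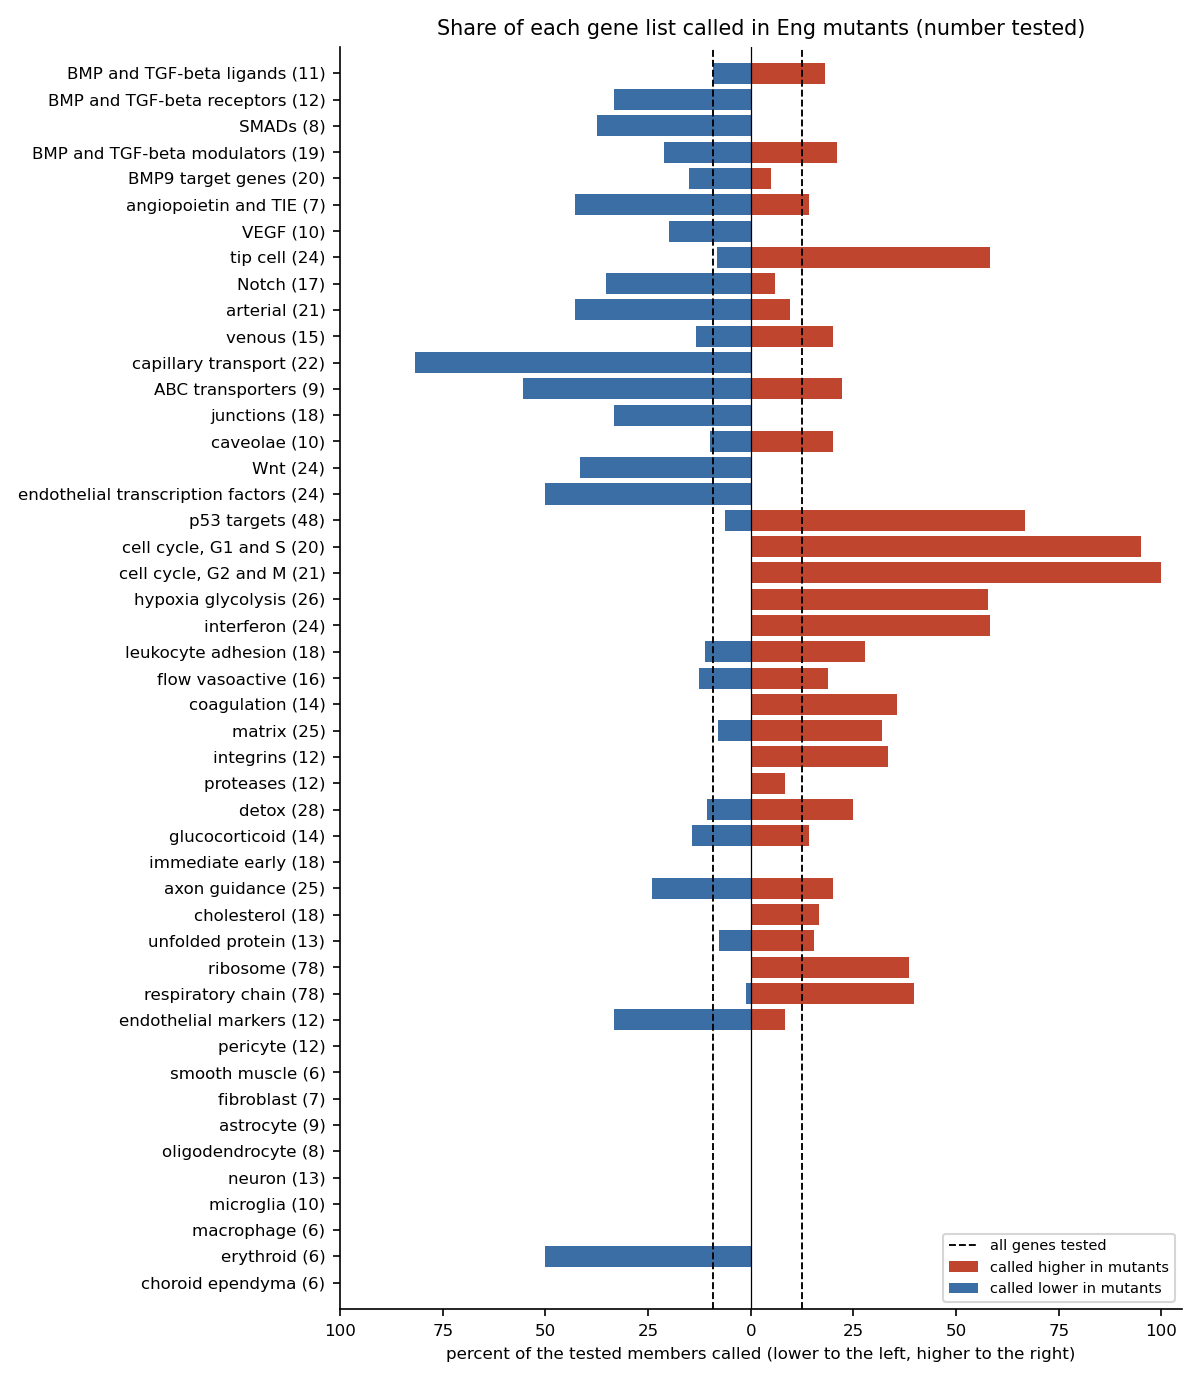
Percent of the tested members of each gene list (number tested in brackets, lists of at least 5) called higher (red, to the right) or lower (blue, to the left) in Eng mutants by limma. Dashed lines mark the shares over all genes tested, 12.4% higher and 9.08% lower. All 21 genes of the G2 and M phases were called higher, and 18 of 22 genes of capillary transport were called lower.

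Among ligands of the BMP and TGF-beta family 11 of 14 listed genes passed the filter on low values. Of these 2 were called higher and 1 lower, against 12.4% and 9.08% of all genes tested. Their median effect was 0.13, against -0.01 over all genes tested. The 11 tested, the 2 called higher and the median include Gdf15, which passed the filter only through the mutants. Gdf2, the gene of BMP9, was at 0 in all 10 libraries, and Bmp10 did not pass the filter. Bmp2, a ligand that acts through ALK3 and ALK6, stood at 699, 765, 781, 839 and 554 in the wild types and 1817, 1627, 1829, 2174 and 1057 in the mutants (1.2 ± 0.17, adjusted p = 0.000419). The lowest mutant, number 5, was still above the highest wild type. In the Smad4 cohort Bmp2 was not called (-0.20, adjusted p = 0.281), and the 2 effects differed in the joint fit (difference 1.39, adjusted p = 0.000183). Gdf15, a stress-induced member of the family that is also a target of p53, was at 18.6, 16.7, 13.3, 14.0 and 8.85 in the wild types and 118, 154, 136, 186 and 202 in the mutants. All its wild types were under the filter value of 20, so it entered the test only through the mutants, and no fold or test is given for it. Tgfb2 fell, from 3713, 3647, 4082, 3992 and 4559 in the wild types to 2771, 2419.9, 2135, 2139 and 2328 in the mutants (-0.76 ± 0.08, adjusted p = 4.41e-05). Its groups did not overlap, and its fall was smaller than that after loss of Smad4 (-1.38, difference 0.62, adjusted p = 0.0129). Tgfb1 (0.03 ± 0.04), Bmp4 (0.13 ± 0.12) and Bmp6 (0.38 ± 0.18) were not called (adjusted p = 0.604, 0.5 and 0.158).

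Neither ALK1 nor BMPR2, the receptors that work with endoglin, was called. Acvrl1, which encodes ALK1, was at 18916, 21659.9, 21274, 19407 and 22461 in the wild types and 21014, 19165, 20182, 20848 and 21838 in the mutants, and the groups overlapped (-0.01 ± 0.05, adjusted p = 0.944). Bmpr2 was at 17960.4 to 21347 in the wild types and 17441 to 21084 in the mutants (-0.09 ± 0.06, adjusted p = 0.303). Of the 12 receptors tested none was called higher and 4 were called lower, Eng included, against 12.4% and 9.08% of all genes. Tgfbr3, the other large co-receptor of the family (betaglycan), fell from between 5178 and 5877 to between 3761 and 4517 without overlap (-0.39 ± 0.06, adjusted p = 0.000399). Acvr2b, an activin receptor, and Tgfbr2, the type II receptor of TGF-beta, fell by 0.22 and 0.16 on the log2 scale (adjusted p = 0.00407 and 0.0373).

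Of the 8 SMAD genes 3 were called, all lower and by little, against 9.08% of all genes called lower. Without wild type 2, wild type 5, mutant 2 or mutant 4 the count was 1, and in the joint fit of 30 libraries it was 0. Smad6, an inhibitory SMAD that BMP signalling induces, stood at 1879, 1788, 1628, 1696 and 1941 in the wild types and 1805, 1279, 1475, 1179.7 and 1083 in the mutants (-0.41 ± 0.12, adjusted p = 0.0261). Mutant 1 lay inside the wild-type range, and the call was lost in 5 of the 10 fits that left out 1 library (adjusted p up to 0.065). Smad5, a receptor SMAD of the BMP branch, fell by 0.12 on the log2 scale with no overlap (adjusted p = 0.0137). Smad4 was called at -0.12 ± 0.04 with overlap (adjusted p = 0.0495), and its call was lost in 8 of the 10 fits without 1 library. Smad1, a second receptor SMAD of that branch, was at 2993 to 3727 in the wild types and 3207 to 3644 in the mutants (0.02 ± 0.06, adjusted p = 0.832). In the other cohorts it rose, by 0.94 after loss of Smad4 and by 1.57 after loss of Alk1, and both differences from the Eng effect were called (-0.92 and -1.55, adjusted p = 0.000198 and 7.69e-08).

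Secreted and intracellular modulators of the pathway split evenly, with 4 of 19 called higher and 4 lower, against 12.4% and 9.08% of all genes. Fstl1, a secreted follistatin-like protein, rose from between 10829.7 and 11926 to between 14025 and 16891 (0.45 ± 0.05, adjusted p = 4.59e-05). Ltbp1, which holds latent TGF-beta in the matrix, rose (0.49 ± 0.12, adjusted p = 0.0138) from 1257, 1228, 1243, 1273 and 918 to 2110.0, 1591, 1476, 1842 and 1352. After loss of Smad4 or Alk1 the same gene fell (-0.73 and -0.88), and the differences were called (1.22 and 1.37, adjusted p = 1.06e-05 and 1.93e-06). Grem1, a BMP antagonist of low level here, rose from between 34.0 and 62.2 to between 66.2 and 161 (1.00 ± 0.24, adjusted p = 0.0103), and Mgp, a matrix protein that binds BMPs, rose by 0.39 (adjusted p = 0.0155). Bambi, a decoy receptor, fell from between 4029 and 4674 to between 3107 and 3673 (-0.40 ± 0.05, adjusted p = 0.000256). Ltbp4 (-0.39 ± 0.06), the serine protease gene Htra1 (-0.37 ± 0.05) and the ubiquitin ligase gene Smurf2 (-0.16 ± 0.04) fell as well (adjusted p = 0.000424, 0.000216 and 0.0219).

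Target genes of BMP9 were called about as often as all genes tested. All 20 were tested, 1 was called higher and 3 lower, against 12.4% and 9.08% (21.5% in either direction) of all genes. Their median effect was -0.13. Without wild type 4 or mutant 1, 6 were called lower. In the Smad4 cohort 10 of the 20 were called lower and 4 higher, against 15.8% and 17.2% (33% in either direction) of all genes tested there, with a median of -0.38. The Alk1 cohort had 9 lower and 3 higher, against 15.7% and 17.5% (33.2% in either direction), and a median of -0.18. Id1, an inhibitor of differentiation that responds to BMP9 within hours, was at 7516, 8332, 7304, 5413 and 7215 in the wild types and 7546, 5859.8, 5409, 4996 and 5744 in the mutants. The ranges overlapped, and the effect of -0.28 ± 0.12 was not called (adjusted p = 0.13). Id2 (-0.17 ± 0.07) and Id3 (-0.16 ± 0.07), from the same family, also missed the threshold (adjusted p = 0.0846 and 0.124).

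The ID genes differed between the cohorts. Id1 fell by 2.50 on the log2 scale after loss of Smad4 and by 1.49 after loss of Alk1, and the Eng effect stood 2.23 and 1.22 above these (adjusted p = 2.48e-10 and 1.46e-05 in the joint limma fit). For Id2 the differences were 1.55 and 0.91 (adjusted p = 1.26e-07 and 0.000252), and for Id3 they were 0.59 and 1.78 (adjusted p = 0.042 and 1.33e-07). Hey1, a transcription factor that both BMP9 and Notch induce, fell from 3607, 4114, 3996, 3258 and 3723 in the wild types to 2590.1, 2160.3, 2334, 1881 and 2039 in the mutants (-0.77 ± 0.09, adjusted p = 7.22e-05), with no overlap. Its falls after loss of Smad4 (-0.31) and Alk1 (-0.44) were smaller in value, but neither difference was called (adjusted p = 0.0733 and 0.181). Gja4, the arterial gap junction gene connexin 37, fell from between 7209 and 8655 to between 5311 and 7060.2 (-0.42 ± 0.08, adjusted p = 0.00243).

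**Figure D2:**
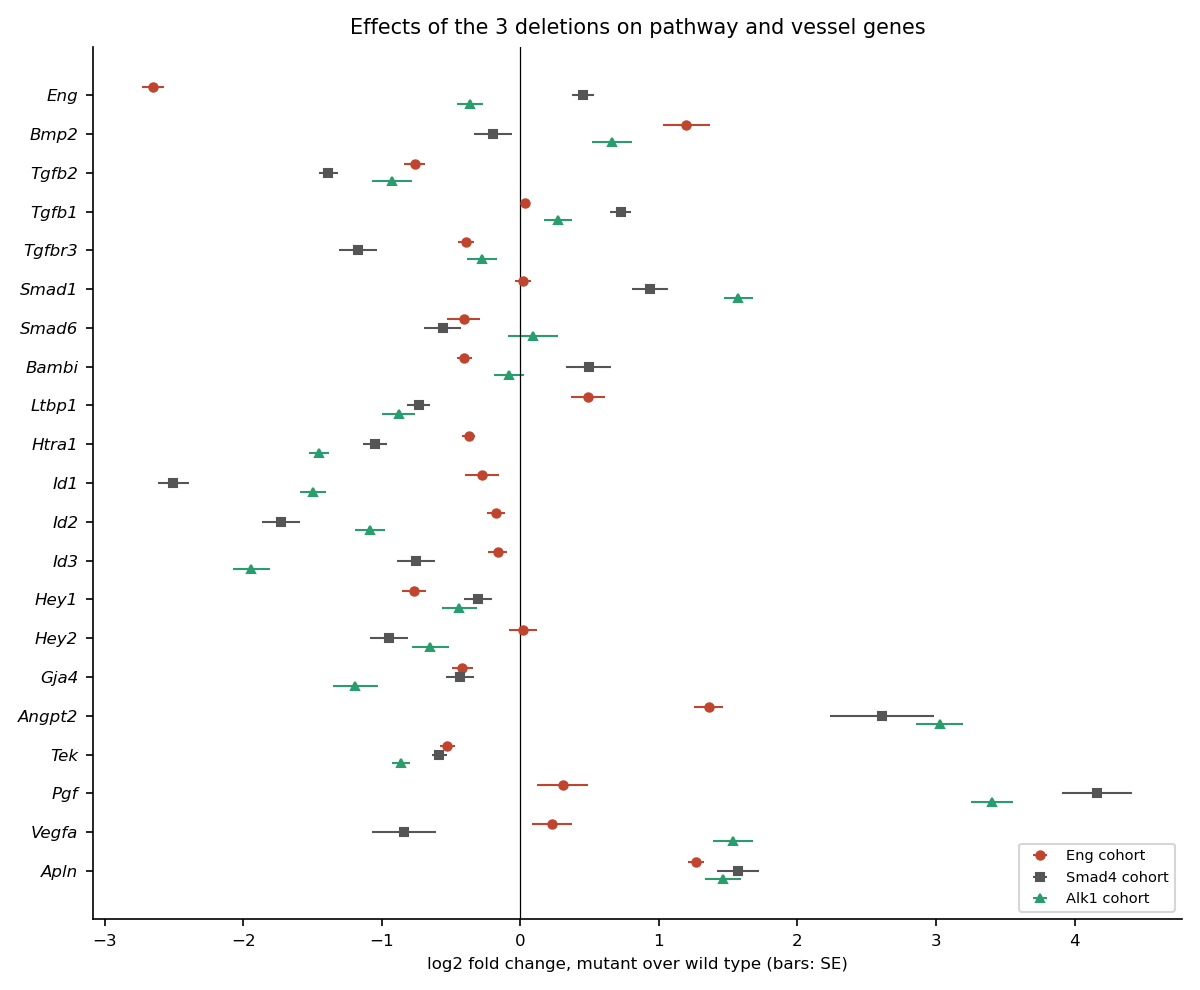
Log2 fold change of mutant over wild type (horizontal axis, bars are SE, n = 5 per group) for 21 pathway and vessel genes in the Eng (circles), Smad4 (squares) and Alk1 (triangles) cohorts, each fitted alone. Id1, Id2 and Id3 lie between -0.16 and -0.28 in the Eng cohort and between -0.75 and -2.50 in the others, whereas Apln lies between 1.27 and 1.57 in all of them.

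Angpt2, a ligand that blocks TIE2 signalling in resting vessels, stood at 1913, 1845, 1914, 1677 and 1997 in the wild types and 4497, 4321, 6549, 4254 and 4649.7 in the mutants (chromosome 8, 18690263 to 18741562). Mutant 3 was the highest and the other mutants lay close together. The rise of 1.36 ± 0.10 was smaller than after loss of Smad4 or Alk1 (differences -1.25 and -1.67, adjusted p = 0.0414 and 0.00353). The 7 angiopoietin and TIE genes tested had 1 call higher and 3 lower, against 12.4% and 9.08% of all genes. Their median effect was -0.18. Tek, which encodes TIE2, fell from 37913, 40866, 42441, 37162 and 41507 to 30428, 26251, 26079.8, 27990.0 and 28139.5 (-0.53 ± 0.05, adjusted p = 4.27e-05). Ptprb, a phosphatase that acts on TIE2, fell by 0.22 and Tie1, its partner receptor, by 0.18 (adjusted p = 0.014 and 0.0173). Both of these small calls were lost with quantile normalization (adjusted p = 0.354 and 0.433).

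None of the 10 VEGF ligands and receptors tested was called higher, and 2 receptors were called lower, against 12.4% and 9.08% of all genes. Flt1, the decoy receptor VEGFR1, fell from between 83979 and 100822 to between 72586 and 80003 with no overlap (-0.30 ± 0.06, adjusted p = 0.00575), and Flt4, which encodes VEGFR3, fell by 0.20 (adjusted p = 0.0135). Kdr, the main signalling receptor VEGFR2, was at 118598 to 133218 in the wild types and 124985 to 134419 in the mutants (0.02 ± 0.05, adjusted p = 0.871). Pgf, the gene of placental growth factor, stood at 121, 87.3, 101, 113 and 81.3 in the wild types and 178, 113, 135, 92.0 and 115 in the mutants (0.31 ± 0.19, adjusted p = 0.287). In the Smad4 and Alk1 cohorts the same gene rose by 4.16 and 3.41 and the differences of -3.86 and -3.10 were called (adjusted p = 4.28e-10 and 6.22e-08). Vegfa was not called in the Eng cohort (0.23 ± 0.14, adjusted p = 0.308), while it was lower after loss of Smad4 (-0.84) and higher after loss of Alk1 (1.53), with both differences called (adjusted p = 0.0127 and 0.00151).

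**Figure D3:**
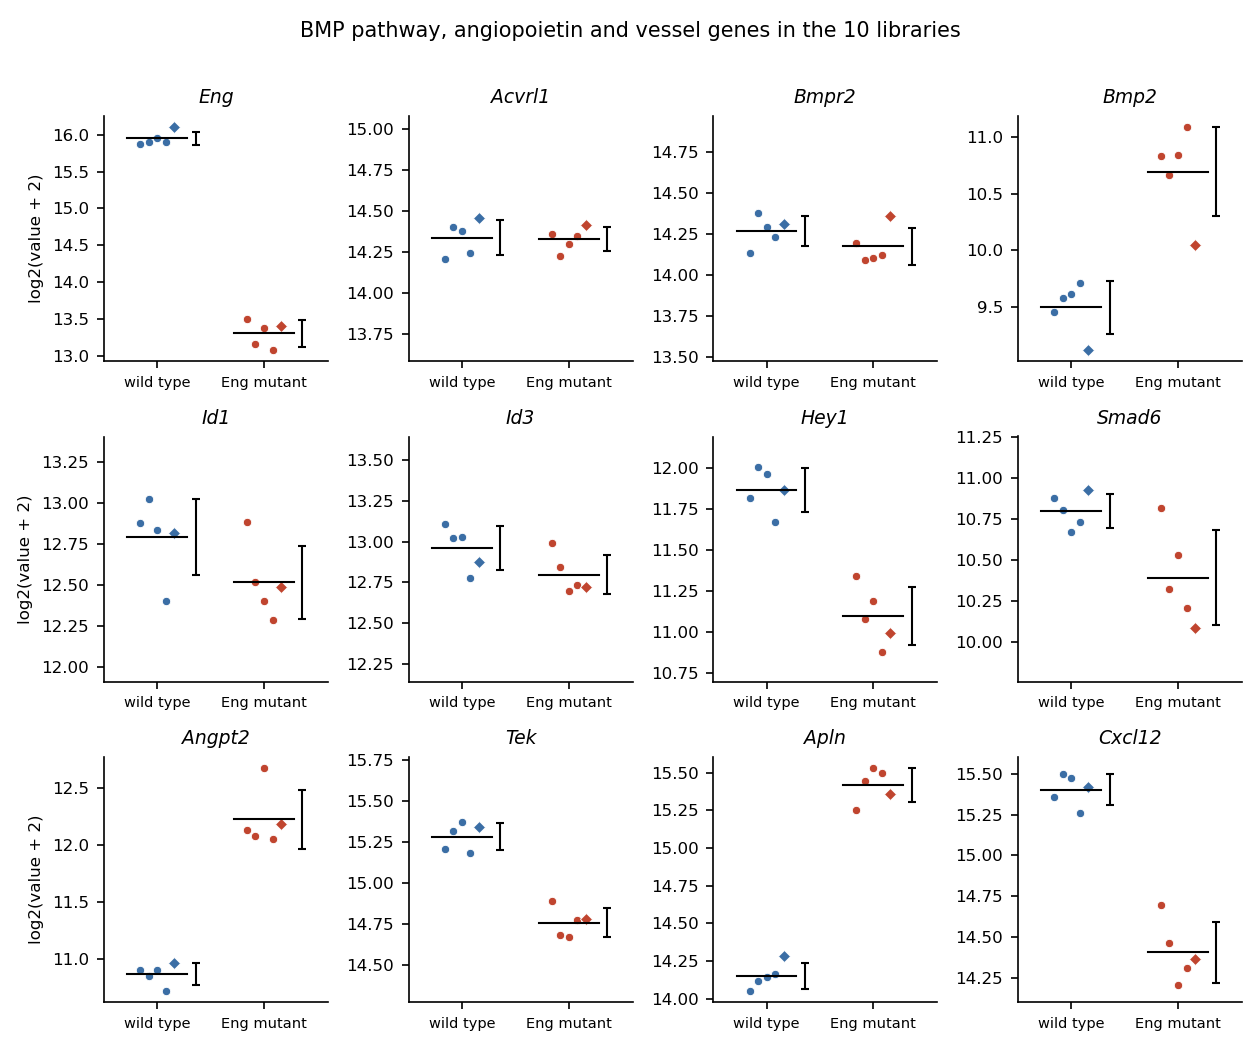
Level of 12 genes in every library, as log2(value + 2), for wild types (blue) and Eng mutants (red). Diamonds are the pair of libraries coded L216, black lines are group means and bars are SD (n = 5), and the vertical scales differ. Eng, Bmp2, Hey1, Angpt2, Tek, Apln and Cxcl12 separate the groups without overlap, whereas Acvrl1, Bmpr2, Id1, Id3 and Smad6 overlap.

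Genes of sprouting tip cells, the leading cells of growing vessels, were mostly called higher. Of 24 tested, 14 were called higher and 2 lower, against 12.4% and 9.08% of all genes, with a median effect of 0.29. Apln, the secreted peptide apelin of tip cells, stood at 16941, 17736, 18092, 18358 and 19898 in the wild types and 38998, 44591, 47332, 46252 and 42009 in the mutants, with no overlap (1.27 ± 0.06, adjusted p = 7.87e-08). The effects on Apln after loss of Smad4 (1.57) and Alk1 (1.46) were not called different (differences -0.30 ± 0.18 and -0.20 ± 0.18, adjusted p = 0.322 and 0.526). The list as a whole rose less in the Eng cohort, with medians of 0.96 after loss of Smad4 and 1.02 after loss of Alk1. A lower Eng effect was called for 14 of the 24 genes against Smad4 and for 14 against Alk1. Over all genes tested these shares were 4.26% and 7.92%. Adm, the vasodilator peptide adrenomedullin, rose from 673, 564, 692, 746 and 834 to 1361, 1342, 2354, 1728 and 1526 (1.22 ± 0.15, adjusted p = 0.000138). Esm1, a proteoglycan of tip cells, rose from between 589 and 899.9 to between 974 and 1352 (0.73 ± 0.12), and the adhesion molecule gene Mcam rose by 0.62 (adjusted p = 0.000916 and 9.61e-05). Col4a1, a basement membrane collagen, rose by 0.40 (adjusted p = 0.00061). The 2 genes called lower were Unc5b, a netrin receptor (-0.33 ± 0.06, adjusted p = 0.00152), and Aplnr, the apelin receptor (-0.32 ± 0.10, adjusted p = 0.0401). The call of Aplnr was lost in 12 of the 23 alternatives with a test, 7 of the 10 fits without 1 library among them.

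Arterial genes fell more often than they rose, with 9 of 21 called lower and 2 higher and a median of -0.20. For this and the Notch and venous lists below, the shares of all genes were 9.08% lower and 12.4% higher. Sox17, a transcription factor of arterial fate, fell from between 7394 and 9101 to between 5504 and 6725 (-0.44 ± 0.06, adjusted p = 0.000445), and Edn3, the vasoactive peptide endothelin-3, fell from between 826 and 1400.2 to between 578 and 805 (-0.73 ± 0.14, adjusted p = 0.00365). Both separated the groups. Efnb2, the ephrin of arteries, fell by 0.29 with overlap (adjusted p = 0.027), a call that was lost in 5 of the 10 fits without 1 library. Among 17 Notch genes 6 were called lower and 1 higher, and without wild type 2 or mutant 2 there were 3 lower. Of 15 venous genes 3 were called higher and 2 lower, among them Ackr1, a chemokine-binding receptor of venules, which rose from between 621 and 841 to between 1020.4 and 1506 (0.64 ± 0.11, adjusted p = 0.00139).

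Transport genes of brain capillaries fell together. Of 22 tested, 18 were called lower and none higher, against 9.08% and 12.4% of all genes, with a median effect of -0.37. The count was 15 without wild type 3 and 12 in the joint fit of 30 libraries. Slc22a8, the organic anion transporter OAT3, was at 31478, 31534, 32942, 30782 and 34102 in the wild types and 21466, 20309, 20138, 21920.0 and 23362 in the mutants (-0.59 ± 0.05, adjusted p = 6.84e-06). Slco1c1, the carrier of thyroid hormone OATP1C1, fell from between 87226 and 120713 to between 68341 and 81029 (-0.49 ± 0.08, adjusted p = 0.00143). Slc16a1, the monocarboxylate carrier MCT1 that brings lactate and ketones to the neonatal brain, fell from between 163093 and 187038 to between 125463 and 136689 (-0.40 ± 0.05, adjusted p = 0.000287). In each of these the highest mutant lay below the lowest wild type, as in 6.37% of all genes tested. Slc6a17, an amino acid carrier better known from neurons, had the largest fall of the list, from between 2777 and 3996 to between 1000.2 and 1555 (-1.41 ± 0.12, adjusted p = 8.54e-06), a call lost in the joint fit of 30 libraries (adjusted p = 0.0864). Mfsd2a, a lipid carrier that restrains transcytosis, fell by 0.49 (adjusted p = 0.0021). Cav1, the coat protein of caveolae, rose from between 16000.2 and 18613 to between 22464 and 28415 (0.54 ± 0.06, adjusted p = 9.38e-05). The list of caveolae and transcytosis did not move as a whole, with 2 of 10 genes called higher, 1 lower and a median of 0.08.

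The ABC transporters had 5 of 9 called lower and 2 higher, against 9.08% and 12.4% of all genes. Abcb1a, the efflux pump P-glycoprotein, fell from between 34501 and 39399.7 to between 26549.9 and 29691 (-0.41 ± 0.05, adjusted p = 8.36e-05), and Abcc4 fell by 0.33 (adjusted p = 0.00158). Of 18 junction genes 6 were called lower and none higher, to be set against the same shares. Jam2, a junctional adhesion molecule, fell from between 11902 and 13589 to between 8396 and 8868 (-0.56 ± 0.04, adjusted p = 3.60e-06), and the tight junction genes Ocln and Tjp1 fell by 0.28 and 0.22 (adjusted p = 0.00494 and 0.0018). Cldn5, the main claudin of the barrier, was called lower at -0.18 ± 0.05 (adjusted p = 0.0278), but the call was lost in 6 of the 10 fits without 1 library and in the libraries coded L210 alone, and the sign turned with quantile normalization (0.00115, adjusted p = 0.989).

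Wnt signalling, which induces the barrier in brain endothelium, had 10 of 24 genes called lower and none higher (median -0.23). The shares of all genes were 9.08% and 12.4%. Notum, a secreted feedback inhibitor, fell from 3575, 3438, 3302, 3446 and 4738 to 2244, 2341, 1725, 2283 and 2756 (-0.71 ± 0.12, adjusted p = 0.00145), less than after loss of Smad4 or Alk1 (differences 0.86 and 1.25, adjusted p = 0.000149 and 5.06e-07). Apcdd1, another target and inhibitor of the pathway, fell from between 138400.0 and 172170.0 to between 101808 and 132518 (-0.41 ± 0.08, adjusted p = 0.00328). Lef1, the nuclear partner of beta-catenin, fell by 0.25 and the receptor gene Fzd6 by 0.24 (adjusted p = 0.0182 and 0.00363). Endothelial transcription factors showed 12 of 24 called lower and none higher (median -0.19), but 8 without wild type 2, wild type 3 or mutant 3 and 1 in the joint fit. Among them Lyl1 fell by 0.42 and Foxq1 by 0.29 (adjusted p = 0.00697 and 0.016).

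Target genes of p53 included the largest rise of the cohort among genes with a mean value of at least 100, that of Eda2r. p53 is a transcription factor that responds to DNA damage and other stress by halting the cell cycle or starting cell death. Of the 48 targets tested 32 were called higher and 3 lower, against 12.4% and 9.08% of all genes, with a median effect of 0.75. In 31 of the 32 every mutant lay above every wild type, which was so for 10.2% of all genes tested. The list was chosen with earlier results of these libraries known and is not independent evidence of its direction. Eda2r, a receptor of the TNF family, rose from 32.6, 60.7, 66.9, 54.8 and 37.0 in the wild types to 1351, 1574, 1324, 1696 and 1577 in the mutants (4.89 ± 0.18, adjusted p = 9.64e-09). Phlda3, an inhibitor of AKT, went from 182, 178, 166, 199.7 and 177 to 1752, 1834, 1914, 2030.5 and 1793 (3.35 ± 0.07), and Zmat3, an RNA-binding protein, from 2223, 2291, 2404, 2196 and 2053 to 6222, 6429.8, 6806, 6722 and 6921 (1.57 ± 0.05, adjusted p = 4.36e-11 and 1.14e-09). The spread within each group was small beside these shifts. Cdkn1a, the cell cycle inhibitor p21, rose from 2930.3, 3594, 3593, 3063 and 4714 to 8770.0, 9519, 11016, 10519 and 11489 (1.53 ± 0.12, adjusted p = 4.82e-06). Ccng1, cyclin G1, rose by 1.55, Aen, an apoptosis-enhancing nuclease, by 1.38, Bax, a mitochondrial death effector, by 0.90 and Mdm2, the ubiquitin ligase that degrades p53, by 0.46 (adjusted p = 7.37e-10, 5.85e-08, 3.86e-07 and 0.000138).

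Of the 48 genes 35 were called higher in the Smad4 cohort and 22 in the Alk1 cohort, with medians of 0.82 and 0.44. In those cohorts 17.2% and 17.5% of all genes tested were called higher. The Eng effect differed from the Smad4 effect in 3 of the 48, against 8.23% of all genes (3.97% with the Eng effect higher and 4.26% lower), and from the Alk1 effect in 27, against 14.8%. In 24 of these 27 the Eng effect was the higher one, against 6.88% of all genes. Ephx1, an epoxide hydrolase, rose from between 756 and 982 to between 3727 and 4189 (2.14 ± 0.07, adjusted p = 1.45e-09), with 2.02 after loss of Smad4 and 0.20 after loss of Alk1 (difference from Alk1 1.94, adjusted p = 1.67e-13). For Eda2r and Phlda3 the differences from Alk1 were 1.93 and 1.70 (adjusted p = 0.000525 and 1.22e-09). Cdkn1a did not differ beyond the error from either (-0.33 ± 0.30 and -0.33 ± 0.30, adjusted p = 0.548 and 0.525). The Alk1 pups differed in tamoxifen dose, in its day and in age, and these cannot be told apart from the gene deleted.

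Cell cycle genes rose in the same libraries. Of 20 genes of the G1 and S phases 19 were called higher and none lower (median 0.54), and all 21 genes of the G2 and M phases were called higher (median 0.75). Plk1, a mitotic kinase, stood at 830.0, 668, 657, 735 and 786 in the wild types and 1573, 1554, 1631, 1291 and 1464 in the mutants (1.03 ± 0.08, adjusted p = 5.59e-06). Ube2c, which marks mitotic proteins for degradation, rose from 712, 486, 549.5, 648 and 767 to 1421, 1402, 1439, 1151 and 1328 (1.10 ± 0.12, adjusted p = 5.23e-05). Cdk1, the kinase that drives mitosis, rose from between 1801 and 2309 to between 3088 and 3626, and Birc5, survivin, from between 708 and 997 to between 1503 and 1813 (0.69 ± 0.07 and 0.87 ± 0.09, adjusted p = 6.13e-05 and 4.59e-05). Among S-phase genes the helicase gene Mcm5 rose by 0.78 and the ribonucleotide reductase gene Rrm2 by 0.84 (adjusted p = 1.46e-05 and 6.75e-05). Ccnd1, cyclin D1 of the G1 phase, rose from between 16439 and 18189 to between 24651 and 26614 (0.57 ± 0.04, adjusted p = 2.42e-06). The Eng effect was below the Alk1 effect in 13 of the 21 G2 and M genes, against 7.92% of all genes, and it differed from the Smad4 effect in 1 of them. In bulk samples more cells in cycle and more of these RNAs per cell cannot be told apart, and the same holds for every level given here.

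Because most members of these lists moved together, short motifs were searched for in their promoters in the RefSeq promoter table for GRCm38.p6. In the 250 bases before the start, CCAAT, the box bound by NF-Y, stood on either strand in 15 of the 17 G2 and M genes with an entry, against 40.2% of 11227 tested genes with one. The letters TTTGAA, the cell cycle homology element, were found in 7 of the 17, against 12.8%. An E2F site, TTTGGCGC or TTTCCCGC, was found in 4 of 15 genes of the G1 and S phases, against 2.74%. Of the p53 targets 37 had an entry, and the core of a p53 site (CATG, any 6 bases, then CATG) stood in 1 of them, Cdkn1a, against 0.338%. A single match describes Cdkn1a and not the list. Printed below are the 120 bases before an annotated start of Ube2c (chr2:164769809-164769928, plus strand), Cdk1 (chr10:69352913-69353032, minus strand) and Cdkn1a (chr17:29090859-29090978, plus strand), with these motifs in capitals on whichever strand they occur. A match describes letters only and shows no binding.
Ube2c: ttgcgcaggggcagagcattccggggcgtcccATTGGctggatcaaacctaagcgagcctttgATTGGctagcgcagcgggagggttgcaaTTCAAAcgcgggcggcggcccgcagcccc
Cdk1: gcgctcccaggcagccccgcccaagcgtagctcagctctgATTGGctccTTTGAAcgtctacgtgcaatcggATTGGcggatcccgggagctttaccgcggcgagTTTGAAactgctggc
Cdkn1a: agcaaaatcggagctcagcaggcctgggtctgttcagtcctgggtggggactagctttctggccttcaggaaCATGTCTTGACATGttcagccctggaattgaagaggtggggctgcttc

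**Figure D4:**
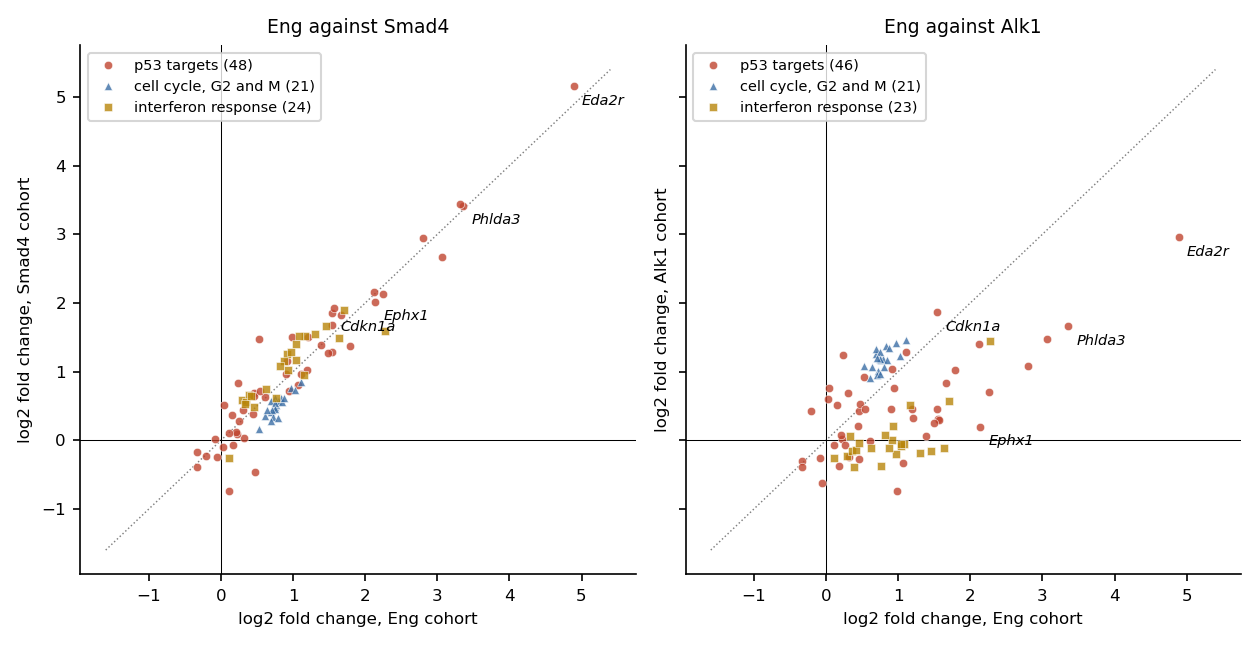
Log2 fold changes in the Eng cohort (horizontal) against those in the Smad4 (left) and Alk1 (right) cohorts for p53 targets (circles), genes of the G2 and M phases (triangles) and interferon response genes (squares) tested in both. The dotted line marks equal effects. In the Smad4 cohort Eda2r lies at 5.16 and Ephx1 at 2.02, close to the line, whereas in the Alk1 cohort they lie at 2.96 and 0.20.

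Interferon response genes were higher in the mutants, with 1 wild type standing apart. Of 24 tested, 14 were called higher and none lower, against 12.4% and 9.08% of all genes tested, with a median effect of 0.92. In only 4 did every mutant lie above every wild type, which was so for 10.2% of all genes tested. Rsad2, the antiviral protein viperin, stood at 406, 230.4, 213, 251 and 740.2 in the wild types and 1116, 1037, 1112, 1225 and 888 in the mutants (1.71 ± 0.29, adjusted p = 0.00129). Wild type 5 was the highest of its group and approached the mutants. Isg15, a ubiquitin-like modifier, was at 762, 375, 460.4, 558 and 1546 in the wild types and 2167, 1337, 1686, 1694 and 1248 in the mutants (1.30 ± 0.32, adjusted p = 0.0117), and wild type 5 lay inside the mutant range. Ifit3 showed the same order, at 306, 182, 162, 215 and 822 and 1058, 777, 803, 1005 and 727 (1.64 ± 0.36, adjusted p = 0.0066). Without wild type 5, all 24 genes were called higher and the median was 1.16. Without wild type 2 or wild type 3 the count was 9. Within the libraries coded L216, that is mutant 5 against wild type 5, Isg15 and Ifit3 were lower in the mutant, by 0.31 and 0.18 on the log2 scale with no test.

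Cxcl10, an interferon-induced chemokine, separated the groups all the same, at 40.6, 28.4, 65.4, 34.9 and 91.6 in the wild types and 213, 224, 189.7, 244 and 343 in the mutants (2.27 ± 0.29, adjusted p = 0.000202). Bst2, the surface protein tetherin, did so as well, at 2324, 1884, 1819.7, 2055 and 3374 and 4913, 3944, 4172, 4421 and 3816 (0.92 ± 0.14, adjusted p = 0.000785). The Smad4 cohort had 20 of the 24 called higher (median 1.12), against 17.2% of all genes tested there. In the Alk1 cohort 2 were called higher and 1 lower (median -0.11), both below the 17.5% and 15.7% of all genes tested there. Differences between the effects were called for none of the 24 against Smad4 and for 4 against Alk1. Over all genes tested the shares were 8.23% and 14.8%, so the 4 are near the share in either direction. In all 4 the Eng effect was the higher one, against 6.88% of all genes. An interferon-stimulated response element (GAAA, any 2 bases, then GAAA) stood in the 250 bases before the start of 9 of 19 listed genes with an entry, against 3.18% of tested genes. It is shown in capitals in 90 bases of the promoters of Isg15 (chr4:156200849-156200938, minus strand), Cxcl10 (chr5:92349050-92349139, minus strand) and Bst2 (chr8:71537533-71537622, minus strand), since these 3 genes differ in how far wild type 5 reached the mutants.
Isg15: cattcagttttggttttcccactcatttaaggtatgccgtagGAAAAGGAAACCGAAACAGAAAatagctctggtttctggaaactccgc
Cxcl10: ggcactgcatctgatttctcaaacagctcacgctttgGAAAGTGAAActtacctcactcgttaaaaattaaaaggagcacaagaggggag
Bst2: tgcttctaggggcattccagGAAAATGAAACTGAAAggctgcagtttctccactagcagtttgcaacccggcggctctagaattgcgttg

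**Figure D5:**
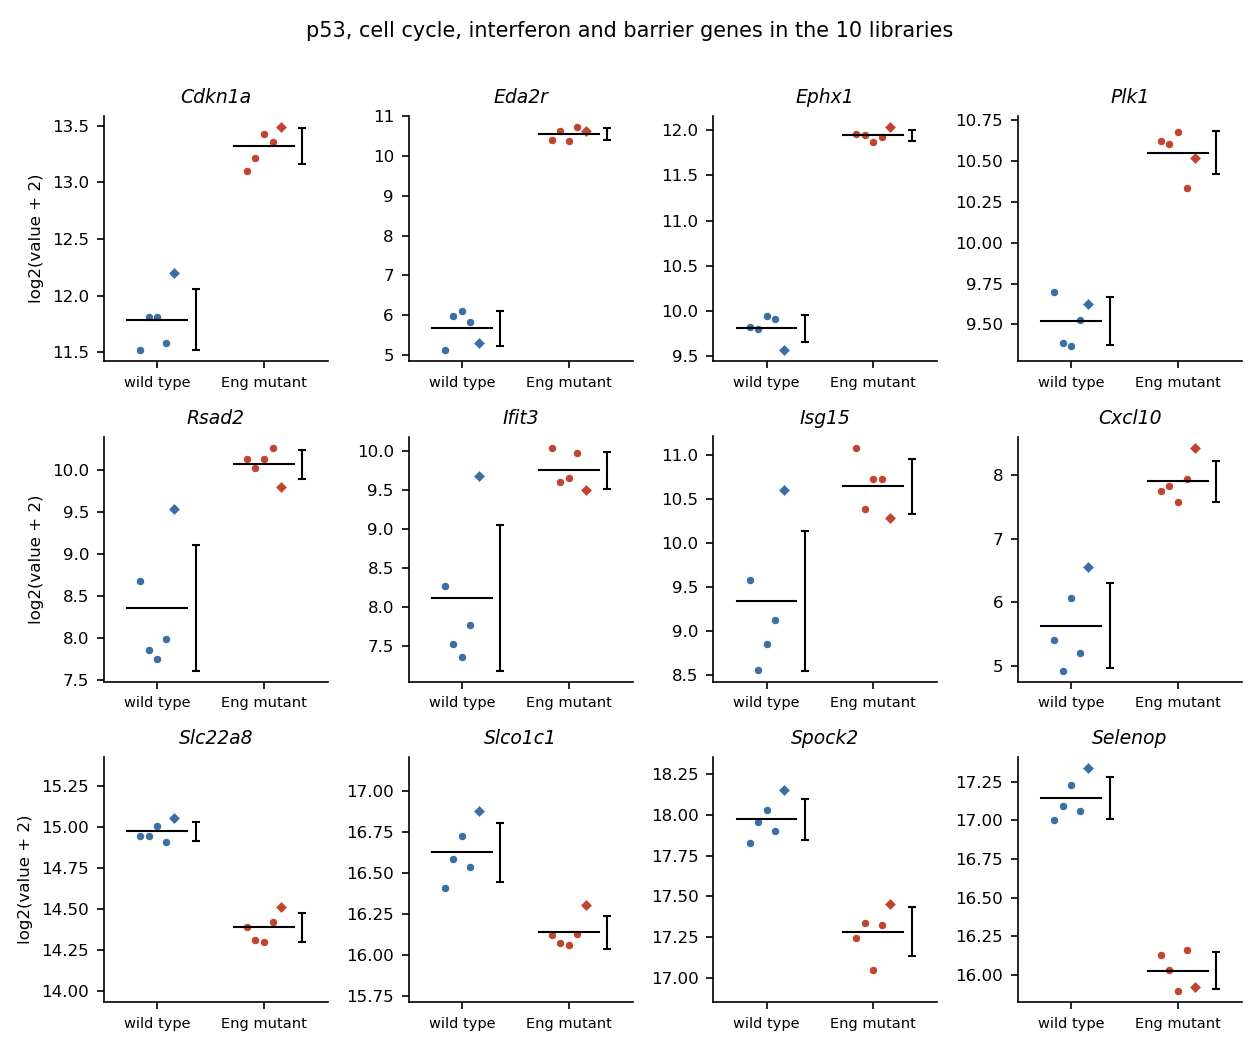
Level of 12 genes in every library, as log2(value + 2), for wild types (blue) and Eng mutants (red). Diamonds are the pair coded L216, black lines are group means and bars are SD (n = 5), and the vertical scales differ. Wild type 5 reaches 740.2, 821.8 and 1546 for Rsad2, Ifit3 and Isg15, while the p53 targets, Plk1 and the barrier genes separate the groups without overlap.

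Leukocyte adhesion genes had 5 of 18 called higher and 2 lower, against 12.4% and 9.08% of all genes, so the lower calls were near the share of all genes. Sele, the E-selectin of activated endothelium, was low in the wild types at 34.4, 31.8, 43.4, 44.1 and 44.9 and stood at 109, 113, 142, 214 and 223 in the mutants (1.91 ± 0.23, adjusted p = 0.000131). The Eng effect on Sele exceeded the Smad4 effect (-0.41, difference 2.32, adjusted p = 0.000392). Selp, the P-selectin stored in endothelial granules, rose from between 46.5 and 73.3 to between 112 and 159.9 (1.26 ± 0.16, adjusted p = 0.000212). Icam1, an integrin ligand, rose from 5582, 5829.9, 6176, 5458 and 6339 to 8247, 7339, 7333, 8596 and 13319 (0.57 ± 0.14, adjusted p = 0.0104), with mutant 5 the highest. Cxcl12, a chemokine of arterial endothelium, was 1 of the 2 called lower and fell from 41983, 46233, 45569, 39215 and 43831 to 26595, 22622, 18893, 20299 and 21104 (-0.99 ± 0.08, adjusted p = 8.67e-06). Ackr1, a venular gene described above, was lower after loss of Smad4 (-1.25), and the difference was called (1.89, adjusted p = 0.000392).

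Genes of hypoxia and glycolysis rose in part, with 15 of 26 called higher and none lower (median 0.27). For this and the other lists of this paragraph, the shares of all genes were 12.4% higher and 9.08% lower. Ldha, lactate dehydrogenase, rose from between 11454 and 12675 to between 14939 and 16779.6 (0.42 ± 0.04, adjusted p = 2.92e-05), and Gapdh from between 13611 and 15781 to between 20510.3 and 22979 (0.55 ± 0.05, adjusted p = 8.88e-06). In the Alk1 cohort 24 of the 26 were called higher (median 1.07), against 17.5% of all genes tested there. The Eng effect was called lower than the Alk1 effect in 22 of the 26, against 7.92% of all genes. For Ldha the Eng effect was lower by 0.60 (adjusted p = 0.00598 in the joint limma fit). Cytosolic ribosomal protein genes had 30 of 78 called higher and none lower (median 0.12), with 18 without wild type 4 or mutant 1, and the respiratory chain 31 of 78 higher and 1 lower (median 0.13). In matrix genes 8 of 25 were called higher and 2 lower. Loxl2, a collagen crosslinking enzyme, rose from between 1300.1 and 2213 to between 2664 and 3282 (0.84 ± 0.12, adjusted p = 0.000512). Among 12 integrins 4 rose and none fell, and Itgb3 rose by 0.70 (adjusted p = 0.00746). None of the 18 immediate early genes, which respond to tissue handling, was called. At an unadjusted p under 0.05, 1 of them passed.

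Other named changes outside the p53 list concerned enzymes, secreted proteins and receptors. Ada, adenosine deaminase, rose from 61.9, 53.9, 46.0, 53.4 and 67.8 to 301, 316, 362, 307 and 325 (2.48 ± 0.13, adjusted p = 1.94e-07). F5, coagulation factor V, rose from between 426 and 574 to between 1520.0 and 2301 (2.00 ± 0.11, adjusted p = 3.86e-07), and S100a10, the annexin A2 partner that binds plasminogen, from between 209.7 and 264 to between 377 and 594 (1.04 ± 0.13, adjusted p = 0.0002). Among the falls, Selenop, the carrier of selenium, went from 131141, 139485, 153568, 136775 and 165677 to 71629, 66984, 60830.3, 73142 and 61972, and Fmo1, a flavin monooxygenase, from between 1764 and 2142 to between 708 and 1049 (-1.12 ± 0.08 and -1.15 ± 0.09, adjusted p = 2.37e-06 and 7.97e-06). Gpr182, an atypical chemokine receptor of endothelium, fell from between 1178 and 1720.3 to between 628 and 983, and Ccl19, a chemokine that binds CCR7, from between 214 and 334 to between 128 and 173 (-0.86 ± 0.13 and -1.0 ± 0.14, adjusted p = 0.000602 and 0.000377). Each of these 7 genes separated the groups.

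Markers of other cell types were checked in the same libraries. Endothelial markers were high, with Cldn5 at 92178 and Cdh5 at 14596 per kb of exon in the wild types. The neuronal Rbfox3 was at 38.1, the astrocytic Gfap at 397 and the smooth muscle Acta2 at 446. RNA of other cell types was present as well. Without scaling to length, endothelial markers summed to 604578 to 677801 in the wild types and pericyte markers to 80001 to 131050. Choroid plexus and ependyma markers summed to 34480 to 69582, microglia markers to 12759 to 30594 and astrocyte markers to 17691 to 25096. Of 12 endothelial markers 4 were called lower and 1 higher, against 9.08% and 12.4% of all genes. None of the 12 pericyte, 6 smooth muscle, 7 fibroblast, 9 astrocyte, 8 oligodendrocyte, 13 neuron, 10 microglia and 6 macrophage markers tested was called. Their summed levels nevertheless varied more among mutants than among wild types for the neural types. Neuron markers summed to 5033 to 5881 in the wild types and 3015 to 9404 in the mutants, and oligodendrocyte markers to 9059 to 11438 and 5065 to 20033. Mutant 1 had the lowest and mutant 2 the highest neuron sum. With the level of these neural markers as a term in the fit, 3086 genes were called, 1678 higher and 1408 lower. Without it 3082 were called, 1779 higher and 1303 lower. Similar totals do not show that the same genes were called. Erythroid genes had 3 of 6 called lower, against 9.08% of all genes. Their sums were 27074 to 48381 in the wild types and 18170 to 32128 in the mutants. The part of the erythroid genes in the results was not tested. Ttr, the transthyretin of the choroid plexus, was at 32946 to 66708 in the wild types and 31886 to 67420.2 in the mutants.

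Over all genes the calls overlapped in part with those of the other cohorts. Of 1750 genes called higher in the Eng cohort and tested in all 3, 1064 were also called higher after loss of Smad4, which is 60.8% of the Eng list and 44.7% of the Smad4 list. After loss of Alk1 937 were, 53.5% of the Eng list and 39.8% of the Alk1 list. Of all genes tested in the 3 cohorts 17.6% and 17.4% were called higher after loss of Smad4 and Alk1. The opposite call was made for 16 and 43 of the 1750. Of 1295 called lower, 640 were also lower after loss of Smad4 (49.4% and 30.5%) and 625 after loss of Alk1 (48.3% and 29.3%), against 15.5% and 15.8% of all genes. Opposite calls were made for 64 and 68 of the 1295. These cohorts share no libraries. The effects differed in 8.23% of genes from Smad4 and in 14.8% from Alk1. Of these differing genes 19 and 24 did not pass the filter in the Smad4 and the Alk1 table. For Smad4 48.3% of the differing genes had the higher effect in the Eng cohort, and 66.2% did with each library divided by its total. For Alk1 the shares were 46.5% and 61.7%.

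Among genes with a mean value of at least 100 and a called difference, those furthest apart were looked at. Against Smad4 the genes with the Eng effect far below included Pgf, Lypd1, Eng and Igfbp3. Fgfbp1, a carrier of fibroblast growth factors, was the opposite case. It rose in the Eng mutants, from 487, 492, 656, 783 and 753 to 1122, 1351, 1100.5, 979.7 and 2087 (1.04 ± 0.20, adjusted p = 0.00328), and fell in the Smad4 (-1.75) and Alk1 (-0.69) mutants, a difference of 2.79 and 1.73 (adjusted p = 9.57e-07 and 0.000507). The 4 genes further above the Smad4 effect, Trim12a, Hbb-y, Trim30d and Trim5, did not pass the filter in the Smad4 table, and no difference is given for them. Against Alk1 the Eng effect was most below in Zbtb16, Hif3a, Map3k6, Lrg1 and Pgf, none of which was called in the Eng cohort. It was most above in Rec8, Gkn3, Fgfr4, Adgra1 and Cbln2. Adgra1, an adhesion receptor gene, fell in both, by 1.01 in the Eng and by 3.32 in the Alk1 mutants.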

How the data were processed

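Messenger RNA of PECAM-captured brain endothelial cells was sequenced in 10 Eng libraries, 5 per group. The deposited values are the authors' normalized signal per gene, not whole counts, although the labels call them raw counts. Library sums were 40.3 to 42.7 M. The step of a library was taken as its most frequent low value. Of all values 18.5% to 21.6% were whole multiples of that step (tolerance 0.05), and of values under 20 it was 56.1% to 72.2%. The values were thus not whole counts, and no count test was run. The submitters' processing notes name the build mm10. How reads were counted and scaled is not stated in the labels. Columns were tied to groups, not to single samples.

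A gene entered the test where 5 or more libraries reached a value of 20 (14350 genes). Values were taken as log2 of the value plus 2 and tested with limma 3.58.1 (intensity trend, R 4.3.3, Benjamini-Hochberg adjustment). Differences between cohorts came from 1 limma fit of 30 libraries over all genes; the tables were normalized separately. The procedure was tested on simulated data. Coordinates are from GENCODE M21, which matched 98.1% of symbols, and promoters from RefSeq for GRCm38.p6.

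The members and lists were chosen with earlier results of these data known. Named genes were all members of the BMP, SMAD, angiopoietin and VEGF lists, up to 8 members of smallest adjusted p of each other list, defining markers, the 20 largest rises and falls without overlap and the 5 largest differences each way, both with a mean value of at least 100. Ak1, Fpgs, Cdkn1a, Bax and Mdm2 were chosen after their values were seen. Results of some genes that the rule names are not reported here. Alternatives were other scalings, pseudocounts, filters, covariates and samples.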

Additional observations from a re-analysis of the deposited data

Results flagged for a closer look

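Some libraries stood apart from the other 4 of their group, with a gap to the nearest of more than 0.71 of the group's range. Chance alone gives such a gap in about 5% of groups. The 126 genes reported were each screened in both groups, beside some library measures and list sums. Many such gaps are therefore due by chance, and whether any goes beyond it was not tested. The values below are the levels of these libraries. Mutant 1 held 3673 for Bambi. Mutant 2 held 42707 for Tjp1. Mutant 3 held 6549 for Angpt2. Mutant 4 held 123592 for Cldn5 and 5692 for Tgfb1. Mutant 5 held 974 for Esm1, 13319 for Icam1, 30779 for Ltbp4, 81029 for Slco1c1 and 7314 for Smad4. Wild type 1 held 6867 for Smad4. Wild type 4 held 214 for Ccl19. Wild type 5 held 1416 for Acvr2b, 918 for Ltbp1 and 4738 for Notum. Wild type 1 also had the fewest genes above 0, 16776.

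Several effects differed between cohorts in the joint limma fit (adjusted p under 0.05 over all genes). The Eng effect lay below the Smad4 effect by called log2 differences of -3.86 for Pgf, -3.61 for Lypd1, -3.10 for Eng, -2.35 for Igfbp3, -1.25 for Angpt2 and -0.92 for Smad1. The Eng effect lay above the Smad4 effect by called log2 differences of 2.79 for Fgfbp1, 2.32 for Sele, 2.23 for Id1, 1.89 for Ackr1, 1.55 for Id2, 1.39 for Bmp2, 1.22 for Ltbp1, 1.07 for Vegfa, 0.86 for Notum, 0.62 for Tgfb2 and 0.59 for Id3. The Eng effect lay below the Alk1 effect by called log2 differences of -6.75 for Zbtb16, -4.07 for Hif3a, -3.62 for Map3k6, -3.32 for Lrg1, -3.10 for Pgf, -1.67 for Angpt2, -1.55 for Smad1, -1.30 for Vegfa and -0.60 for Ldha. The Eng effect lay above the Alk1 effect by called log2 differences of 3.48 for Rec8, 2.62 for Gkn3, 2.40 for Fgfr4, 2.31 for Adgra1, 2.26 for Cbln2, 1.94 for Ephx1, 1.93 for Eda2r, 1.78 for Id3, 1.73 for Fgfbp1, 1.70 for Phlda3, 1.37 for Ltbp1, 1.25 for Notum, 1.22 for Id1 and 0.91 for Id2. Differences from Alk1 cannot be told apart from age and tamoxifen dosing.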

How the results depend on the processing

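Fitting the 30 untreated libraries together lowered the calls from 3082 to 1611 (1032 higher, 579 lower), and the calls among list members from 324 to 199; the cause was not tested. Leaving out 1 library gave 2422 to 3156 calls, 868 to 1098 called differences from Smad4 and 1740 to 2020 from Alk1. Of 97 called genes named in the report, 73 kept the call in all 23 alternatives with a test, 23 lost it in the joint fit and 9 in some other; 12 uncalled genes gained a call in some alternative. The sign turned for Cldn5 with quantile normalization (0.00115), and for Ifit3 (-0.18) and Isg15 (-0.31) between the libraries coded L216. No paired analysis was possible because the columns carry no replicate number of the labels. With the library code (L210 or L216) as a term 3520 genes were called, 1954 higher and 1566 lower. Normalized values without counts, and 5 libraries per group, limit what small changes can be detected.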
